A study of Mus musculus with 5 samples.

Results

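Cholesterol and fatty acid synthesis were followed here through 33 named genes of the mouse uterine luminal layer, from the first enzymes of the mevalonate pathway to the enzymes that lengthen and desaturate fatty acids. They were listed by name, as enzymes of these pathways and proteins that sense or carry sterols, with earlier results of these data known. Of the 33 names, 32 had a row in the table of 23420 genes. The name without a row was Msmo1, whose older symbol, Sc4mol, is in the table. Its values are given separately and are not in the counts. Of the 32 genes, 31 averaged 1 CPM or more (CPM are counts per 1000000 counts of a library) and were kept, as were 12915 genes of the whole table. Acacb, with a mean of 0.836 CPM, was not kept.

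RNA-seq had been performed on the luminal layer of wildtype C57BL/6N mice, with 5 libraries and 1 library per condition. The conditions are day 3 morning, day 4 morning, day 4 evening, and day 5 morning in 2 places, the luminal layer away from an attached embryo and the luminal layer surrounding it (called away and around below; the table names them Day5am_Mpole and Day5am_AMpole). Day 1 is the day of the vaginal plug. No allele was altered and no agent is named in the labels. In the study, attachment sites were seen from day 5 as blue bands after intravenous Chicago blue dye. The age of the mice, and whether RNA of several mice was pooled in a library, are not given for these libraries. With 1 library per condition there is no replicate error, so no test between conditions was possible. Differences below compare libraries, on the scale of log2 CPM, and the intervals in square brackets are exact 95% intervals of the count ratio that cover counting error only. A gene is counted as higher or lower when its log2 difference passes 1 in either direction, a fold of 2.

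Cholesterol is built from acetyl-CoA through mevalonate, isoprenoid units, squalene and lanosterol. When sterols in the endoplasmic reticulum are low, Scap escorts the transcription factor Srebf2 to the Golgi for cleavage, and the released factor turns on the pathway's genes, Insig1 among them. Insig1 holds Scap back when sterols are plentiful. Fatty acids are built from the same acetyl-CoA through malonyl-CoA by Fasn, and are then desaturated and elongated. The luminal epithelium is the layer that the blastocyst attaches to.

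The libraries held 15334674 to 19529491 counts, and the 32 genes took 0.214% to 0.322% of them. A count of 3, taken as the floor, corresponds to 0.161 to 0.190 CPM. Rn45s and Lars2 together took up to 23.2%, on day 4 morning. Epithelial markers, 9 of 9 detected in every library, summed to 3621 to 11963 CPM, against 536 to 824 CPM for 12 stromal markers. Of the epithelial sums, Calb1 gave 5468, 7978 and 4621 CPM on days 3 and 4. On day 5 it gave 72.8 CPM away and 17.8 CPM around. The stromal sum was lowest around, but its genes were split. Hand2 was at 132 CPM there against 4.03 to 20.9 CPM, and Col1a1, Pdgfra and Pdgfrb were also highest there. Col3a1, Dcn, Lum, Col1a2 and Nr2f2 were lowest there, and Vim, Hoxa10 and Hoxa11 lay between. The around library stood apart in markers of other cells. Gata4, Pou5f1, Cdx2 and Nanog, genes of the embryo, had 0 counts in the other 4 libraries and 54, 68, 22 and 10 counts there. The 10 embryo and trophoblast markers other than Sox17 summed to 5.41, 14.1, 8.09 and 7.29 CPM in the day 3, day 4 morning, day 4 evening and away libraries and to 147 CPM in the around library, with 4, 4, 6, 5 and 0 of them at 0 counts. Sox17 was left out of that sum since it had 14211 to 39217 counts in every library. The 5 muscle markers summed to 10.8 to 31.6 CPM in the other 4 libraries and to 392 CPM in the around library. Des gave 354 CPM of the latter, with 6090 counts. Acta2, Tagln, Cnn1 and Myh11 were at 15.8, 11.1, 6.85 and 4.24 CPM there, each also at its highest. Which cells the Des counts came from was not tested. The 6 endothelial markers summed to 12.3 to 45.6 CPM and to 99.8 CPM there, of which Cdh5 gave 71.4 CPM, while Kdr (1.05 CPM) and Emcn (1.57 CPM) were at their lowest there and Tek was at 14.3 CPM against 25.3 CPM away. The 6 leukocyte markers with a row summed to 226 to 327 CPM and to 87.3 CPM there. Lyz2 gave 187 to 287 CPM of the former and 41.1 CPM of the latter. Ptprc, Csf1r and Itgam were also lowest there, while Cd68 went the other way, at 38.9 CPM there against 9.99 to 17.7 CPM. The 4 gland markers with a row summed to 0 to 3.92 CPM in the other 4 libraries and to 25.7 CPM there. Lif gave 17.7 CPM of the latter, with 304 counts against 0 to 36. In the study, Lif is described as induced on day 5 in stroma near attached embryos, so it need not mark gland there. Foxa2 was at 1.22 CPM there against 2.84 CPM on day 4 morning, while Prss28 and Prss29 were highest there, at 2.55 and 4.30 CPM. The part of these cells in the results on the around library was not tested. In such bulk samples, fewer cells of a type and less RNA per cell cannot be told apart.

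The sterol enzymes stood highest in the layer around the embryo. Against day 4 morning, 10 of the 15 kept were higher in the around library and 1, Pmvk, was lower, with a median log2 difference of 1.42. Against the away library of the same morning, 10 were higher and none was lower, with a median of 1.27. In the away library itself, 2 were higher than on day 4 morning and 1 was lower, with a median of 0.03. Over all 12915 genes, 20.7% were higher and 22.6% lower in the around library than on day 4 morning, and 13.4% were higher and 15% lower than in the away library. The medians of all genes in these comparisons were -0.03 and -0.05. The 2 comparisons share the around library. With CPM scaled by library totals alone, the median of all genes between the day 5 libraries went from -0.05 to -0.36. The 15 enzymes then had 7 higher (against 9.97% of all genes) and 1 lower (against 21.7%) between these libraries, with a median of 0.96. In the away library against day 4 morning, their median was then 0.31, and that of all genes was 0.28.

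**Figure D1:**
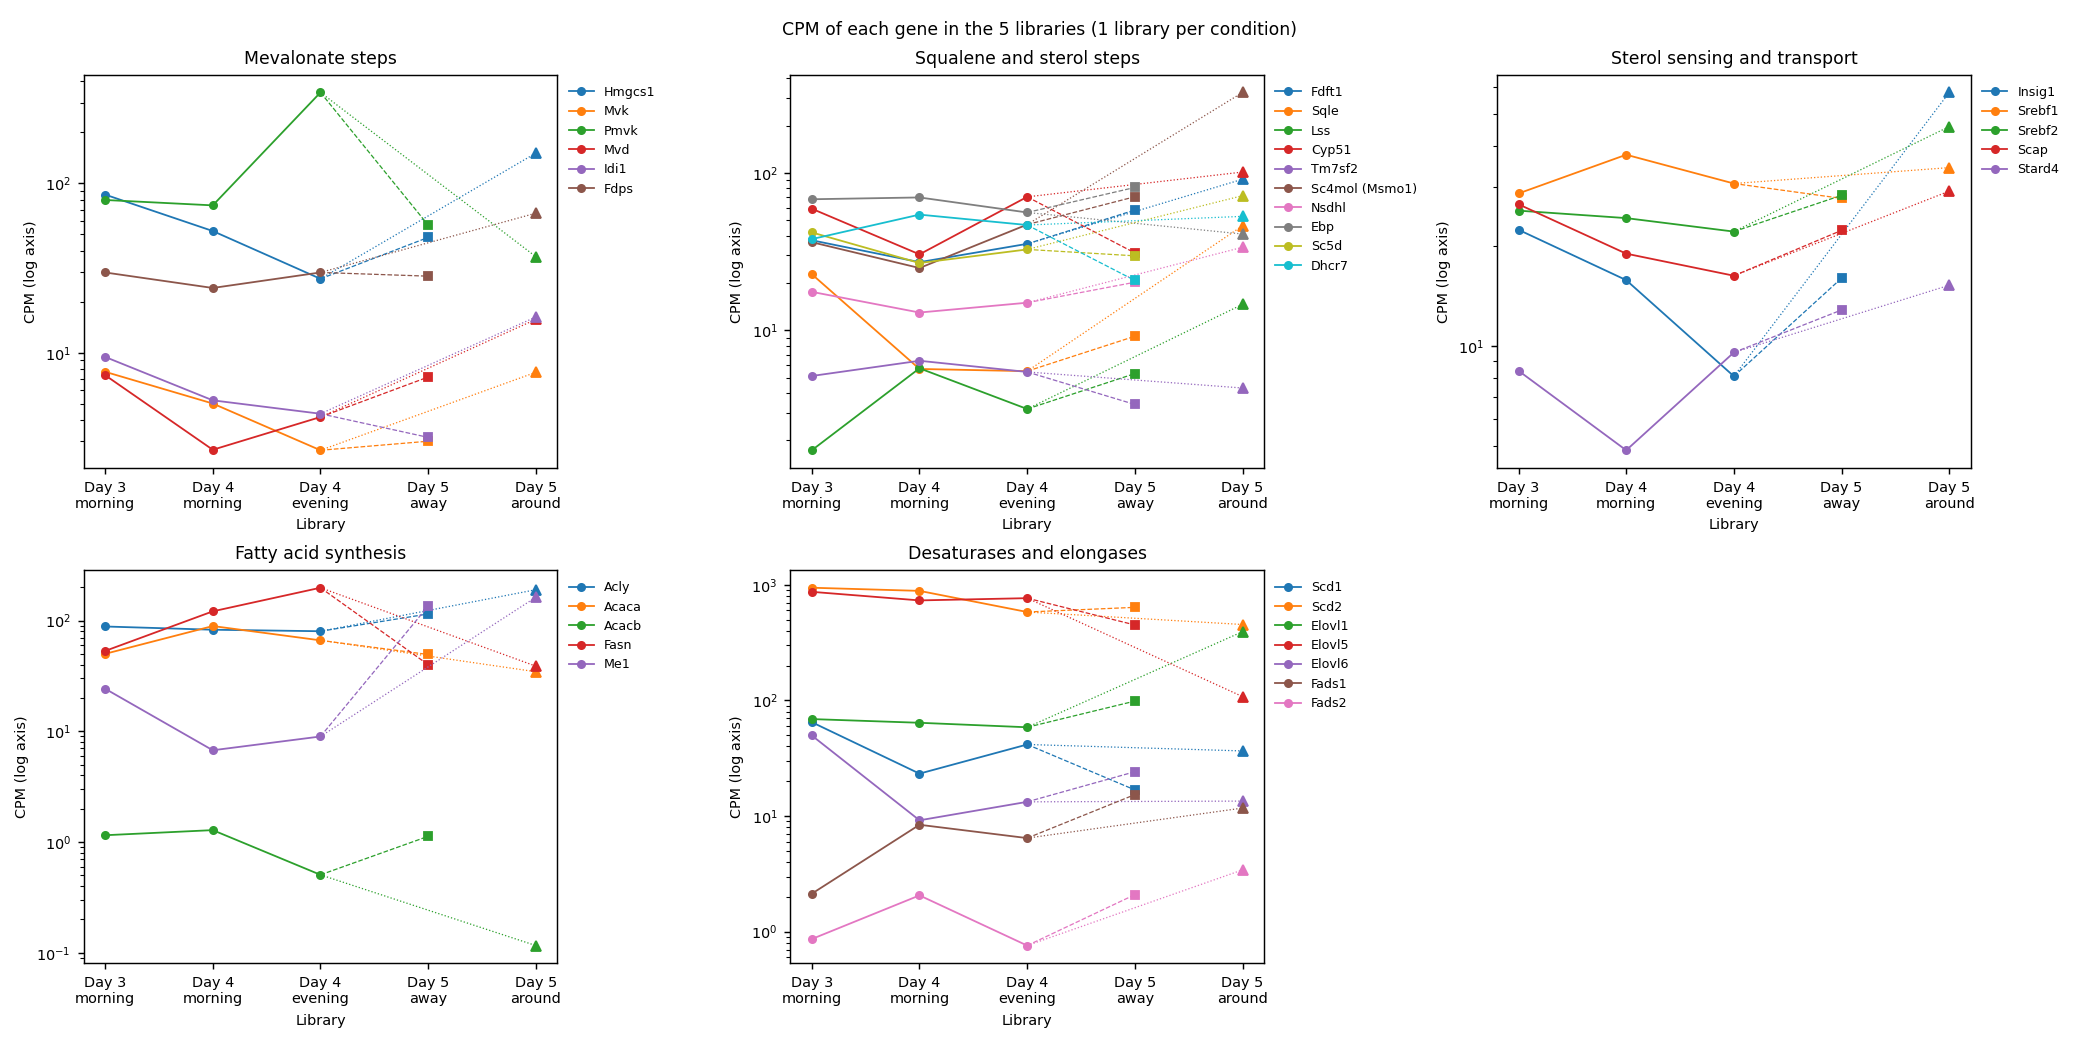
CPM (log axis) of the 32 genes and Sc4mol in the 5 libraries, by role. Circles are the libraries of days 3 and 4, squares the day 5 away library and triangles the day 5 around library, each a single library with no error bar. Hmgcs1, Insig1, Sqle and Elovl1 reach their top at the triangles, at 2599, 997, 796 and 6774 counts, while Elovl5 ends there at 1858 counts.

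The promoters of 5 of these genes are shown since they carry letters that regulators of the pathway are known to bind near such genes, those of the sterol regulatory element or of the CCAAT box. Hmgcs1, Idi1, Insig1 and Msmo1 had some of the wider gaps between the day 5 libraries, and Elovl5 was the gene that went the other way. Each sequence is the 250 bases before the RefSeq start (GRCm38.p6), written 5′ to 3′ on the gene's strand, with matches to TCACNCCAC or to CCAAT, on either strand, in capitals. The places are chr13:119690101-119690350 (plus strand) for Hmgcs1, chr13:8885356-8885605 (plus) for Idi1, chr5:28071162-28071411 (plus) for Insig1, chr8:64733579-64733828 (minus) for Msmo1 and chr9:77917115-77917364 (plus) for Elovl5.
Hmgcs1: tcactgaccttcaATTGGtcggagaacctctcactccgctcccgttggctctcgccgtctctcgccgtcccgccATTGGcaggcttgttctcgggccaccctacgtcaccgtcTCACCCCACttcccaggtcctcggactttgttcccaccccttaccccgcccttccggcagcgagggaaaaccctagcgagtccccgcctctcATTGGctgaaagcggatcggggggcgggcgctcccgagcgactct
Idi1: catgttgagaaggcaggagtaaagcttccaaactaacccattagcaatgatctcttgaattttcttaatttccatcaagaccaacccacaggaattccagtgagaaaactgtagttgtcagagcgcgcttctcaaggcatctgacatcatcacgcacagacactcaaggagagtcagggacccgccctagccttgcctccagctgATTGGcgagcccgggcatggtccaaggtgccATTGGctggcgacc
Insig1: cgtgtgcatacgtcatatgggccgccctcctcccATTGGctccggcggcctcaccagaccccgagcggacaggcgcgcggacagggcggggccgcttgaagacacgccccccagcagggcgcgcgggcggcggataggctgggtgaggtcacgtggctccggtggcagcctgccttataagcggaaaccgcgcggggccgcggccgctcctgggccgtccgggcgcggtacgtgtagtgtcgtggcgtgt
Msmo1: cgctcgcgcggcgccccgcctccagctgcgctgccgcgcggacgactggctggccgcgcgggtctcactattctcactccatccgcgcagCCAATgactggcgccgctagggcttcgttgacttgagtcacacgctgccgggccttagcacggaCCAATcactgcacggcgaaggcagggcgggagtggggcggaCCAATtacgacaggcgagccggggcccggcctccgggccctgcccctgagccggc
Elovl5: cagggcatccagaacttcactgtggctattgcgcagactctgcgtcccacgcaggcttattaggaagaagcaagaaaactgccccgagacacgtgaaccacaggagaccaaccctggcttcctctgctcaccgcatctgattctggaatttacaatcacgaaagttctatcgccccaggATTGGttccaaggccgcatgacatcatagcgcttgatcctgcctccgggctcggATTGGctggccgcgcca

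The Hmgcs1 promoter holds TCACNCCAC 137 bases before its start and CCAAT 3 times, at 237, 176 and 45 bases. Msmo1 holds CCAAT at 160, 96 and 55 bases before its start, Idi1 at 45 and 14, Insig1 at 216, and Elovl5 at 71 and 17. RefSeq promoters were found for 26 of the 33 names, with 34 entries. Hmgcs1 was the 1 entry of 34 with TCACNCCAC (2.94%), against 1.05% of 32851 mouse promoters of that length. A CCAAT match was in 22 of the 34 entries (64.7%), against 33.8% of all promoters. By gene, it was in 21 of 26, in 13 of 13 sterol enzymes and in 5 of 9 fatty acid genes, against 37.5% of 27025 gene symbols. The letters GGGCGG, known from GC boxes, were in 23 of the 34 entries (67.6%), against 32.7%, and CACGTG, the E-box, was in 5 (14.7%), against 6.02%. Each motif was searched on both strands, and none of the 4 contains another. A match is a description of the letters and not a site of binding, and Elovl5 holds CCAAT as the sterol genes do.

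Of the 6 mevalonate enzymes, 4 were higher in the around library than on day 4 morning and 1 was lower, against 20.7% and 22.6% of all genes. Hmgcs1 (chromosome 13, 119690462 to 119708077, GRCm38), which joins acetyl-CoA units into HMG-CoA, had 1490, 939, 432, 894 and 2599 counts, in the order day 3 morning, day 4 morning, day 4 evening, day 5 away and day 5 around, which is kept for all genes below. It was lowest on day 4 evening, and its difference between the day 5 libraries was 1.65 [1.54 to 1.77], a fold of 3.15. Against day 4 morning, the around library stood 1.53 higher [1.42 to 1.64], while the away library differed by -0.13 [-0.26 to 0.01], an interval that includes 0. So its counts on day 5 away were close to those of day 4 morning and those around the embryo were not.

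Idi1, the isomerase that makes dimethylallyl diphosphate, had 164, 94, 69, 59 and 280 counts. It was lowest in the away library, and the gap between the day 5 libraries was 2.32 [1.95 to 2.79], a fold of 5.14. Mvd, which decarboxylates mevalonate diphosphate, had 128, 48, 66, 134 and 271 counts and was already higher in the away library than on day 4 morning, by 1.39 [0.94 to 1.93], before a difference of 2.51 [2.11 to 3.03] in the around library. Fdps, farnesyl diphosphate synthase, had 517, 433, 471, 528 and 1148 counts, nearly level over 4 libraries and 1.23 higher [1.09 to 1.39] around than away. Mvk, mevalonate kinase, had 134, 90, 42, 56 and 132 counts. Its around library stood 1.32 above the away library [0.89 to 1.83], yet at about the count of day 3 morning, so that its difference from day 4 morning was 0.60 [0.22 to 1.02].

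Pmvk, phosphomevalonate kinase, went against the other 5. It had 1385, 1331, 5444, 1057 and 635 counts, highest on day 4 evening and lowest around the embryo. Its day 4 evening level was 2.21 above day 4 morning [2.13 to 2.30], a fold of 4.64, and its around level differed from day 4 morning by -1.01 [-1.15 to -0.87], just past the limit. In summed CPM of the 15 sterol enzymes, 512, 403, 683, 405 and 751, the day 4 evening library therefore came near the around library. The 9 enzymes of the squalene and sterol steps, without the mevalonate enzymes, summed to 292, 239, 271, 259 and 457 CPM.

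Of the 9 squalene and sterol enzymes with a row, 6 were higher around than on day 4 morning and none was lower, against 20.7% and 22.6% of all genes. Around against away, 5 of them were higher, against 13.4% of all genes. Sqle (chromosome 15, 59315092 to 59331193), the squalene epoxidase and a rate-limiting enzyme of the later pathway, had 395, 102, 87, 171 and 796 counts. It was low on both times of day 4 and highest around the embryo, where it stood 3.00 above day 4 morning [2.73 to 3.34], a fold of 8.14, and 2.32 above the away library [2.09 to 2.58]. Its day 3 level was also above day 4 morning, by 1.98 [1.68 to 2.33]. Fdft1, squalene synthase, had 649, 487, 561, 1085 and 1573 counts. It was higher in both day 5 libraries than on day 4 morning, by 1.10 [0.95 to 1.26] away and 1.75 [1.60 to 1.90] around. On the opposite strand, 774 bases of its exons (27.0% of its length) overlap those of Ctsb, which had 29515, 39260, 66326, 63897 and 133393 counts, and the strand setting of the counting is not given in the sources used here, so reads of the pair cannot be told apart there. Of the other genes, 6 shared exon bases with a neighbour, at 6.06% of their length or less (Lss, Srebf1, Scd2, Elovl1, Me1 and Tm7sf2).

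Cyp51, which demethylates lanosterol, had 1030, 546, 1116, 579 and 1747 counts. Its level alternated between the libraries, with day 4 evening 1.21 above day 4 morning [1.07 to 1.36], the away library at 0.03 [-0.14 to 0.20] and the around library 1.73 above it [1.60 to 1.88]. Lss, lanosterol synthase, had 30, 103, 50, 99 and 252 counts, lowest on day 3 at -1.67 [-2.37 to -1.13] and 1.44 higher around than away [1.12 to 1.81]. Sc5d, a sterol desaturase, had 728, 481, 517, 555 and 1236 counts and stood 1.27 higher around than away [1.12 to 1.42]. These 3 enzymes shared a level in the away library close to that of day 4 morning, with each of their intervals there including 0. With library totals, Cyp51, Lss and Sc5d stood 0.31, 0.17 and 0.43 above day 4 morning there.

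Nsdhl, which removes the carboxyl group left at demethylation, had 305, 233, 237, 377 and 581 counts, and stood 1.37 above day 4 morning [1.16 to 1.60] in the around library but only 0.74 above the away library [0.55 to 0.93]. Dhcr7, the reductase of the last step to cholesterol, had 660, 977, 739, 387 and 913 counts. It was lower in the away library than on day 4 morning, at -1.39 [-1.56 to -1.22], and in the around library differed from day 4 morning by -0.04 [-0.17 to 0.09], so its gap of 1.35 between the day 5 libraries [1.18 to 1.53] came with a low away level. Ebp, the sterol isomerase, had 1183, 1256, 888, 1510 and 705 counts, highest away and lowest around, with a difference of -0.98 [-1.11 to -0.85] that stayed just inside the limit. Tm7sf2, a sterol reductase, had 89, 115, 86, 63 and 74 counts and differed by 0.34 [-0.16 to 0.86] between the day 5 libraries.

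Sc4mol (chromosome 8, 64718145 to 64733578), which RefSeq lists as a synonym of Msmo1, the methylsterol monooxygenase, had 631, 447, 744, 1318 and 5604 counts. It was higher in both day 5 libraries than on any earlier day. Against day 4 morning it was 2.84-fold as high away and stood 3.70 higher on the log2 scale around [3.57 to 3.85], a fold of 13.1, and the gap between the day 5 libraries was 2.20 [2.12 to 2.29]. Had it been counted, 16 of 32 kept genes would have been higher around than on day 4 morning and 14 higher around than away.

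**Figure D2:**
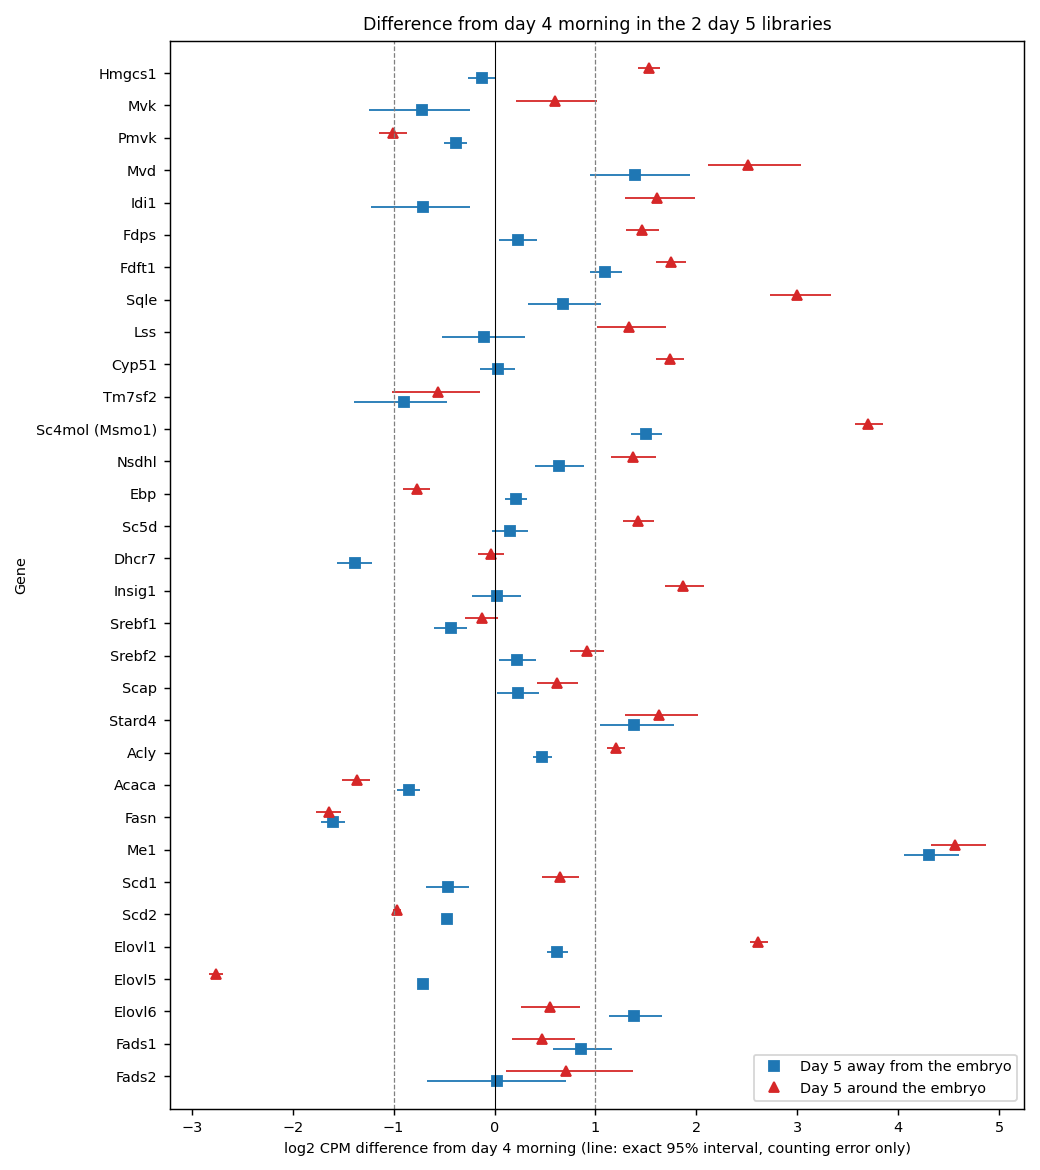
Log2 CPM difference from day 4 morning in the day 5 away library (squares) and the day 5 around library (triangles) for each of the 31 kept genes and Sc4mol, with exact 95% counting intervals and lines at -1 and 1. Sqle, Idi1, Hmgcs1 and Insig1 show triangles well to the right of their squares, Me1 shows both at over 4, and Elovl5 and Fasn lie to the left.

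The 5 genes of sterol sensing and transport were ordered like the enzymes in part. Insig1 (chromosome 5, 28071412 to 28078662), the sterol-responsive retention protein, had 388, 283, 128, 298 and 997 counts. The away library was at the level of day 4 morning, at 0.02 [-0.22 to 0.26], and the around library stood 1.87 above day 4 morning [1.69 to 2.07] and 1.85 above the away library [1.67 to 2.05]. With library totals, the away library was 0.30 above day 4 morning. Like Hmgcs1, Insig1 was lowest on day 4 evening, at -0.95 [-1.27 to -0.66].

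The factor genes varied less. Srebf2, the transcription factor escorted by Scap, had 443, 435, 349, 529 and 787 counts, and its around library was 0.91 above day 4 morning [0.74 to 1.09], inside the limit. Srebf1, its relative that acts more on fatty acid genes, had 499, 675, 487, 518 and 592 counts, a range of 1.35-fold in CPM over the 5 libraries. Scap, the escort protein, had 463, 340, 257, 415 and 503 counts and a range of 1.80-fold. Stard4, a cytosolic sterol carrier, had 146, 87, 151, 239 and 262 counts. Unlike Insig1, it was higher in both day 5 libraries than on day 4 morning, by 1.38 [1.04 to 1.77] away and 1.63 [1.30 to 2.02] around, with 0.25 [-0.01 to 0.51] between them, which was -0.06 with library totals.

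The 11 kept genes of fatty acid synthesis and editing did not differ in a common direction. In the around library 3 were higher than on day 4 morning (Me1, Elovl1 and Acly) and 3 lower (Elovl5, Fasn and Acaca), with a median of 0.55. Over all genes, 20.7% were higher and 22.6% lower there, and 13.4% were higher and 15% lower around than away. Between the day 5 libraries 2 of the 11 were higher around (Elovl1 and Scd1) and 1 lower (Elovl5). Their median was -0.04 there, which was 0.01 with DESeq2's size factors and -0.35 with library totals. With Acacb added, their summed CPM went from 2217 on day 3 morning through 2027, 1822 and 1585 to 1446 in the around library, and Elovl5 and Scd2 made up most of that sum in each of the first 4 libraries. The fall was not shared by both parts of the list. The desaturases and elongases summed to 2000, 1726, 1469, 1245 and 1020 CPM. Acly, Acaca, Acacb, Fasn and Me1 summed to 217, 301, 354, 340 and 426 CPM, with Acly and Me1 giving 190 and 162 CPM of the last value.

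Fasn (chromosome 11, 120805958 to 120824547), the fatty acid synthase, had 923, 2175, 3131, 745 and 667 counts. It was highest on day 4 evening, and both day 5 libraries were below day 4 morning, by -1.60 [-1.72 to -1.48] away and -1.64 [-1.77 to -1.52] around, with -0.04 [-0.20 to 0.11] between them. Acaca, the carboxylase that makes malonyl-CoA for it, had 869, 1602, 1048, 921 and 594 counts, highest on day 4 morning and -1.37 [-1.51 to -1.23] in the around library. Acly, which cleaves citrate to cytosolic acetyl-CoA, had 1535, 1484, 1267, 2139 and 3270 counts and went the other way, 0.47 above day 4 morning [0.38 to 0.57] away and 1.20 [1.11 to 1.29] around. Acacb, the mitochondrial carboxylase, had only 20, 23, 8, 21 and 2 counts, with an interval from -6.59 to -1.45 for the around library against day 4 morning.

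Me1 (chromosome 9, 86581363 to 86695914), the cytosolic malic enzyme that supplies NADPH, had 421, 121, 142, 2520 and 2797 counts. Both day 5 libraries were far above the 3 earlier ones. The difference from day 4 morning was 4.30 [4.06 to 4.60] away, a fold of 20.1, and 4.57 [4.33 to 4.87] around, a fold of 24.1, and 0.27 [0.19 to 0.34] lay between the day 5 libraries. With library totals the last value was -0.05. The 2 day 5 libraries of Me1 thus lay close to each other beside their distance from the earlier ones.

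Among the 7 desaturases and elongases, a pair of elongases stood at opposite ends. Elovl1 (chromosome 4, 118428093 to 118432916), which extends saturated and monounsaturated very long chains, had 1198, 1151, 927, 1841 and 6774 counts. The around library stood 2.62 above day 4 morning [2.53 to 2.71], a fold of 6.14, and 1.99 above the away library [1.92 to 2.07]. Elovl5 (chromosome 9, 77917365 to 77984519), which extends polyunsaturated chains, had 15101, 13162, 12123, 8386 and 1858 counts. It was lower on day 5 than in each earlier library, with -0.70 [-0.74 to -0.67] away and -2.76 [-2.83 to -2.69] around against day 4 morning, a level 6.79-fold lower, and -2.06 [-2.13 to -1.99] between the day 5 libraries.

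In RPKM, counts scaled by gene length and library size, which allows levels of genes to be compared, Elovl5 was the highest of the 32 genes in the first 4 libraries, at 313, 264, 276 and 162, and the 7th of them in the around library, at 38.8, below Elovl1, Scd2, Hmgcs1, Fdps, Me1 and Acly. Elovl1 was at 36.2, 33.7, 30.8, 51.8 and 207 RPKM, and so was the highest of the 32 around the embryo. Sc4mol, at 178 RPKM there, came next among all 33. Scd2 was at 173, 163, 107, 117 and 83.2 RPKM. The lowest was Acacb, at 0.15 RPKM or less in every library.

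Scd2, a stearoyl-CoA desaturase, had 16385, 15914, 9204, 11907 and 7811 counts, and its around library was at -0.97 [-1.01 to -0.93] from day 4 morning, close to the limit. Scd1, its paralog beside it on chromosome 19, had 1126, 418, 658, 314 and 630 counts and stood 1.11 higher around than away [0.92 to 1.32]. Reads shared by the 2 paralogs could be split in either way, since the handling of multi-mapped reads is not given in the sources used here. Elovl6, which extends palmitate, had 864, 165, 210, 451 and 232 counts, highest on day 3 at 2.42 above day 4 morning [2.20 to 2.69], and higher away than around by counts of 451 to 232. Fads1 and Fads2, the front-end desaturases of polyunsaturated chains, had 37, 151, 102, 286 and 202 counts and 15, 37, 12, 39 and 59 counts. Fads1 was lowest on day 3, at -1.92 [-2.54 to -1.45], and Fads2, at this depth, differed between the day 5 libraries by 0.68 [0.10 to 1.33].

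**Figure D3:**
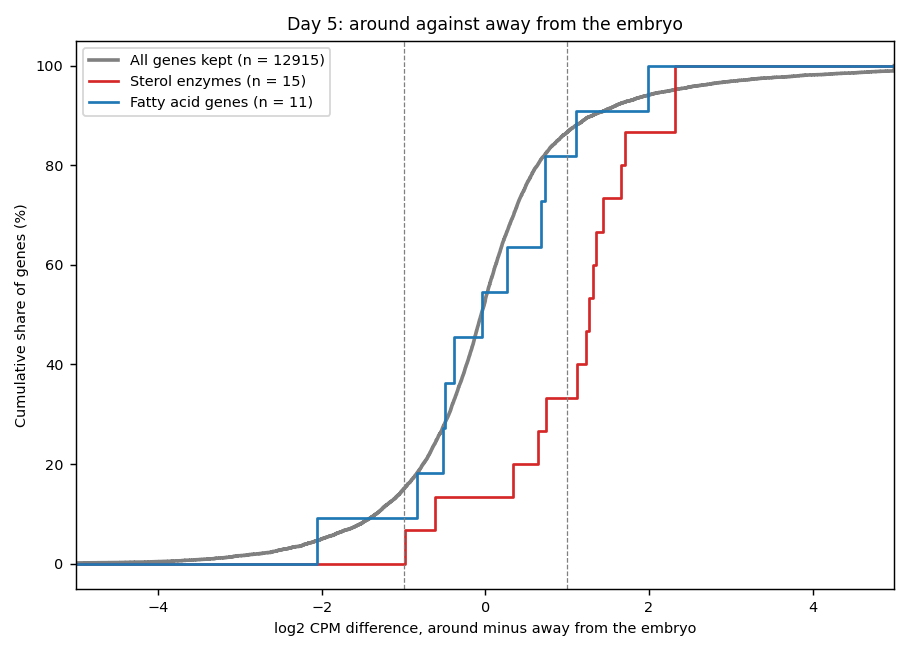
Cumulative share (%) of genes by log2 CPM difference between the day 5 libraries, around minus away, for 12915 genes kept (grey), 15 sterol enzymes (red) and 11 fatty acid genes (blue), with values past the ends drawn at the ends. The red line lies to the right of the grey line with a median of 1.27, while the blue line follows the grey one with a median of -0.04.

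Over all 31 kept genes, the around library differed from day 4 morning most. There 15 were higher (48.4%, against 20.7% of all genes) and 4 lower (12.9%, against 22.6%), with a median of 0.91. Between the day 5 libraries 13 were higher around (41.9%, against 13.4%) and 1 lower (3.23%, against 15%), with a median of 0.69. With library totals, 9 were higher around and 3 lower, while 9.97% and 21.7% of all genes were.

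The other comparisons gave smaller counts. In the away library against day 4 morning, 5 genes were higher (Me1, Mvd, Elovl6, Stard4 and Fdft1) and 2 lower (Fasn and Dhcr7), while 14.9% and 14.3% of all genes were, and the median was 0.03. With library totals the split was 6 and 2, and 20.8% and 10.8% for all genes. On day 3 morning against day 4 morning, 5 were higher (Elovl6, Sqle, Me1, Scd1 and Mvd) and 4 lower (Fads1, Lss, Fasn and Fads2), against 11.5% and 7.47% of all genes, with a median of 0.30. Library totals gave 9 and 2 on that day, against 17.1% and 4.16%. On day 4 evening, 2 were higher (Pmvk and Cyp51) and 1 lower (Fads2), against 7.21% and 6.95%, with a median of -0.13. Each of these comparisons shares the day 4 morning library, so a high or low value there enters all 4.

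By the library in which a gene had its highest CPM, 18 of the 31 genes (58.1%, against 28.9% of all genes) peaked around the embryo. The day 3 library held the top value of 5 genes, day 4 morning of 4, day 4 evening of 2 and the away library of 2, against 19.5%, 19.8%, 14.7% and 17.2% of all genes. Those peaking around the embryo include 10 of the 15 sterol enzymes, and 4 of the 11 fatty acid genes. Each of the 2 day 4 libraries held the lowest value of 9 genes (29%, against 18.9% in the morning and 14.8% in the evening). The around library held that of 6 (32.2% of all genes), the away library of 5 (14.9%) and the day 3 library of 2 (19.2%).

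**Figure D4:**
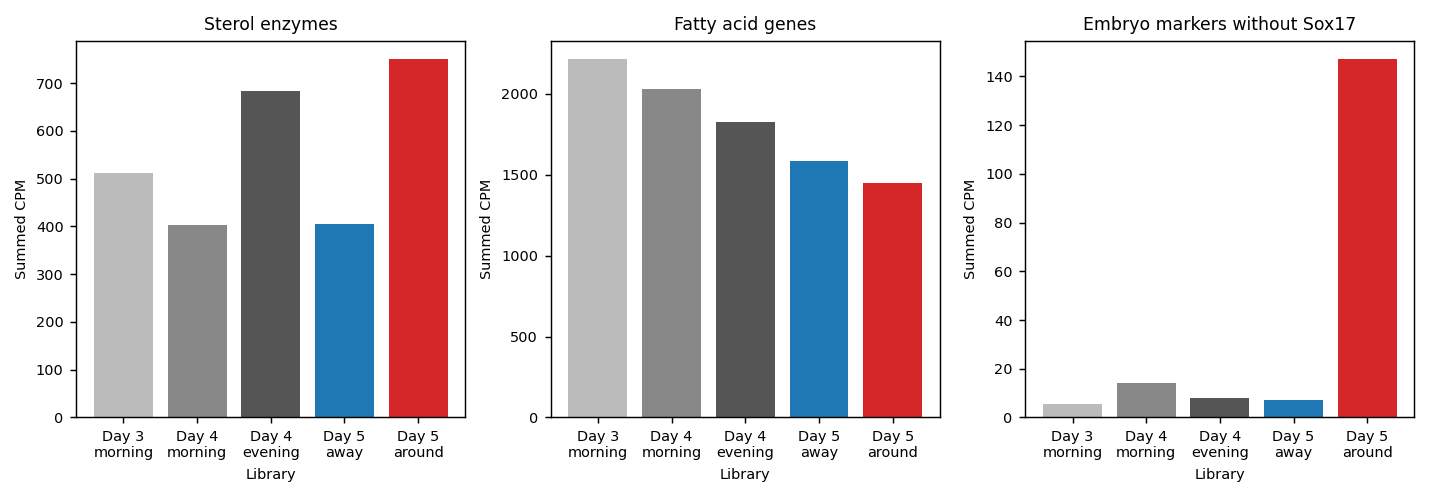
Summed CPM of the sterol enzymes (15 genes), of the fatty acid genes (11 kept and Acacb) and of the 10 embryo and trophoblast markers other than Sox17 in the 5 libraries, with bars starting at 0 and 1 library per bar. The sterol enzymes were at 403 CPM on day 4 morning and 751 CPM around the embryo, and the fatty acid genes went from 2217 CPM on day 3 to 1446 CPM around the embryo, where the embryo markers reached 147 CPM. Within the fatty acid genes, Acly, Acaca, Acacb, Fasn and Me1 went from 217 CPM on day 3 to 426 CPM around the embryo.

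A wider list of 63 genes of lipid metabolism, of which 60 had a row and 56 were kept, did not lean one way around the embryo. There 13 of the 56 were higher than on day 4 morning and 16 lower, with a median of 0.03. Over all genes, 20.7% were higher and 22.6% lower. Around against away, 9 were higher and 10 lower, with a median of 0.05, while 13.4% and 15% of all genes were. In the away library 10 were higher and 11 lower (14.9% and 14.3% of all genes). On day 3 morning the counts were 8 and 5 (11.5% and 7.47%), and on day 4 evening 3 and 7 (7.21% and 6.95%). Among 9 further sterol-step genes, Hsd17b7, a sterol reductase, had 97, 20, 92, 240 and 770 counts, 5.19 above day 4 morning [4.69 to 6.05] in the around library and 1.79 above the away library [1.59 to 2.01]. Cyb5r3, the reductase that passes electrons to sterol and fatty acid desaturases, had 7496, 17281, 10068, 9178 and 2912 counts and was at -1.54 [-1.60 to -1.48] between the day 5 libraries.

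In sterol uptake and trafficking, Vldlr, a lipoprotein receptor, had 1121, 2340, 946, 238 and 905 counts, with its lowest count away at -3.34 [-3.55 to -3.16] from day 4 morning. Lipa, the lysosomal lipase that frees cholesterol from esters, had 1744, 6730, 6332, 5471 and 972 counts, and lay -2.38 [-2.48 to -2.28] lower around than away. Stard5, a sterol carrier, had 4793, 6939, 1926, 2786 and 3378 counts. Thus Lipa and Vldlr lay in opposite order between the day 5 libraries.

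Among genes of the wider list that averaged 10 CPM or more, the largest differences on day 5 lay in the fatty acid supply group. Fads3, a relative of Fads1 and Fads2, had 26, 39, 30, 452 and 7199 counts, 7.51 above day 4 morning [7.14 to 8.08] around the embryo and 4.10 above the away library [3.97 to 4.25]. Thrsp, a nuclear protein tied to lipogenesis, had 20997, 26349, 8362, 205 and 17 counts, at -7.05 [-7.27 to -6.86] away and -10.38 [-11.32 to -9.86] around. Elovl7, an elongase of saturated chains, had 364, 62, 270, 1065 and 1621 counts, and Acss2, an acetyl-CoA synthetase, had 297, 544, 746, 86 and 140. Fads3 and Elovl7 thus had the order of Elovl1 on day 5, and Thrsp had that of Elovl5.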

How the data were processed

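The deposited table gives raw read counts per gene for 5 libraries, with a gene length and no normalization. According to the study's methods and the submitters' processing notes, the authors aligned paired-end reads of SMART-seq libraries to GRCm38/mm10 with HISAT2 and counted them with featureCounts (Subread 2.0.0). The methods describe laser microdissection, and pooling of RNA from several samples, for libraries of another experiment of the study. The annotation, the strand setting and the treatment of multi-mapped reads are not given in the sources used here.

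The counts were scaled with TMM factors (edgeR 4.0.16, R 4.3.3) over all libraries, and log2 CPM used a prior count of 2. Genes were kept where CPM averaged 1 or more. A call was a log2 difference past 1, the fold limit of the study's methods, without a test. RPKM used the length column. Exact Clopper-Pearson intervals (95%, scipy 1.17.1, Python 3.11.15) compared counts of the 2 libraries. The script was tested on simulated data. Coordinates came from the count table, and exon overlaps from GENCODE on GRCm38. All 33 genes were to be named. Of the other lipid genes, those named were the 3 with the largest difference per direction and comparison, among genes past 1 whose CPM averaged 10 or more. The alternatives were no filter on low genes, a filter at an average of 5 CPM, a prior count of 0.5, scaling by library totals or by size factors of DESeq2 1.42.0, and edgeR's exact test. Counting Sc4mol as a member was chosen after seeing the data. The members and lists were chosen with earlier results of these data known.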

Additional observations from a re-analysis of the deposited data

How the results depend on the processing

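With DESeq2's size factors, a prior count of 0.5, or Sc4mol counted, each of the 15 summaries (members higher, members lower and the median, in 5 comparisons) stayed within 1.5 times its main count or, for a median, within the 95% order-statistic interval over the members. Library totals moved 3 of 15: 9 members were then higher on day 3 and 2 lower, against day 4 morning, and 3 were lower around than away. Without a filter, 2 members were lower on day 4 evening and 2 lower around than away, since Acacb then enters, and with a filter at an average of 5 CPM 0 were lower on day 4 evening, since Fads2 is then left out. edgeR's exact test at an assumed dispersion of 0.1 and a false discovery rate of 0.05, a value chosen because there are no replicates, called 1 higher (Elovl6) and 0 lower on day 3 morning, 0 and 0 on day 4 evening, 1 (Me1) and 0 away, 7 (Fdft1, Sqle, Elovl1, Cyp51, Insig1, Mvd and Me1) and 1 (Elovl5) around, and 3 (Idi1, Sqle and Elovl1) and 1 (Elovl5) around against away. Over all genes it called 12.3% higher and 12.1% lower around, and 6.16% and 4.68% around against away. Shares of all genes in the other comparisons were 2.97% higher and 0.72% lower on day 3 morning, 1.22% and 0.643% on day 4 evening, and 5.78% and 5.88% away. No gene past the limit changed its sign under another scaling, but small differences did, also those of Acacb, Ebp, Acly, Sqle, Dhcr7 and Fasn in 1 comparison or more. With library totals, the difference around against away went from 0.27 to -0.05 for Me1, from 0.25 to -0.06 for Stard4 and from 0.31 to -0.0035 for Srebf1, that of the away library against day 4 morning went from -0.13 to 0.15 for Hmgcs1 and from -0.11 to 0.17 for Lss, and the day 4 evening median of the sterol enzymes went from -0.05 to 0.0083. With DESeq2's size factors the median of the fatty acid genes around against away went from -0.04 to 0.01. No paired analysis was possible because each condition has 1 library and the labels carry no replicate numbers, and for the same reason no library could be left out. The exact intervals cover counting error only, and spread between mice is not measured. Acacb and Fads2, at 2 to 59 counts, are the genes whose differences depth limits most.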

Other observations

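In the list of 23 genes of fatty acid activation, glycerolipids, storage and oxidation, 5 were higher and 5 lower around the embryo than on day 4 morning. Over all genes, 20.7% were higher and 22.6% lower. Around against away, 4 of the 23 were higher and 1 lower, while 13.4% and 15% of all genes were. Plin2, a coat protein of lipid droplets, had 2140, 2907, 3849, 3425 and 13069 counts on day 3 morning, day 4 morning, day 4 evening, day 5 away and day 5 around, and stood 2.05 higher around than away [1.99 to 2.10]. Acsl3, an acyl-CoA synthetase found on droplets, had 650, 547, 204, 268 and 1138 counts, and also stood higher around than away, by 2.19 [2.01 to 2.40]. Dgat2, which makes triglyceride, had 11139, 14498, 9819, 2808 and 1956 counts, and Gpam, which starts glycerolipid synthesis, had 147, 203, 110, 544 and 66 counts. These 4 genes thus did not share an order on day 5, with Plin2 and Acsl3 highest around, Gpam highest away and Dgat2 below its earlier counts in both places. Cpt2, of fatty acid entry into mitochondria, had 870, 1944, 2196, 1152 and 2199 counts. Lpin2, a phosphatidate phosphatase, had 376, 186, 153, 431 and 362 counts.

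Of the adipocyte markers other than Lipe, 6 genes together had 0, 0, 0, 8 and 17 counts over the 5 libraries.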
